A study of Mus musculus with 6 samples.

Results

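Expression of 10 genes of the circadian clock was examined in resting mouse microglia with and without overexpression of PGC-1α. The genes were Arntl (also called Bmal1), Clock, Per1, Per2, Per3, Cry1, Cry2, Nr1d1, Nr1d2 and Dbp, chosen by name. Matching transcript accessions to symbols gave 19 probes for these 10 genes, of 56605 probes on the array. PGC-1αf/f mice, on a C57BL/6 background, carry a PGC-1α transgene and an eGFP gene that loxP sites keep silent until Cre acts. mPGC-1α mice carry the same allele and, from the Cx3cr1 locus, a Cre recombinase that tamoxifen activates. Their Cre is inserted into Cx3cr1, which other cells of the macrophage lineage also express, and the controls were PGC-1αf/f littermates, so the insertion itself also separates the groups. All mice were male, aged 10 weeks and without stroke. The study gave tamoxifen before its experiments, and whether the control mice on these arrays received it is not given in the sources used here. Cells were taken by magnetic selection for P2RY12, a receptor that marks microglia, and there were 3 arrays per group. The labels do not say that each array is a separate animal, so p-values measure the spread between these samples only.

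The clock is a loop of transcription and repression that runs in nearly every cell, microglia included. The proteins of Arntl and Clock bind E-boxes together and switch on the Per, Cry and Nr1d genes and Dbp. PER and CRY proteins then repress that pair, and the nuclear receptors encoded by Nr1d1 and Nr1d2 (REV-ERBα and REV-ERBβ) repress Arntl, so that Arntl peaks at the opposite time of day to Per2 and Dbp. PGC-1α enters the loop as a coactivator of the ROR receptors, which compete with REV-ERB proteins for the same element of Arntl, the RORE. Levels of these genes therefore depend on the hour at which a mouse is killed. The methods state a fixed light and dark cycle, and the hour of tissue collection is not given in the sources used here.

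The elements of the loop can be read in the promoters. RefSeq windows from 250 bases before to 50 bases after the start site (GRCm38.p6) were found for 9 of the 10 genes, 13 windows in all; Per2 had none in the table. Both strands were searched for the E-box CACGTG, its variant CACGTT, the D-box TTATGTAA bound by DBP, the cAMP response element TGACGTCA and the RORE. Per1, Cry1 and Per3 are shown because their windows hold the sites that the activators and DBP bind, and Arntl because it holds the element through which RORs and PGC-1α act. Each is written 5′ to 3′ on the strand of the gene with the motif in capitals: the E-box in Per1, the E-box and its variant (read on the other strand as AACGTG) in Cry1, both D-boxes in Per3 and the RORE in Arntl. The first 3 are the 250 bases before the start site, and the last is a stretch of 30 bases just after it.
Per1 (chr11:69098699-69098948, plus strand): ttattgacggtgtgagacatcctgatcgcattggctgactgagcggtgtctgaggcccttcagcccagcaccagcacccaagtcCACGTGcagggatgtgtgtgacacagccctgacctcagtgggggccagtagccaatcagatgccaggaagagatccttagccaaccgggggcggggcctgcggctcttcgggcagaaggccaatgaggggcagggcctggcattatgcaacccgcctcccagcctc
Cry1 (chr10:85185055-85185304, minus strand): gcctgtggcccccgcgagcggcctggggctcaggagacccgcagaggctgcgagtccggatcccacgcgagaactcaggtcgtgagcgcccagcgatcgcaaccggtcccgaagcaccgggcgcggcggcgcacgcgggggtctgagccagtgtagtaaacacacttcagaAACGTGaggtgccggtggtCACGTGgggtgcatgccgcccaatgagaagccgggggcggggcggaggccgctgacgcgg
Per3 (chr4:151044666-151044915, minus strand): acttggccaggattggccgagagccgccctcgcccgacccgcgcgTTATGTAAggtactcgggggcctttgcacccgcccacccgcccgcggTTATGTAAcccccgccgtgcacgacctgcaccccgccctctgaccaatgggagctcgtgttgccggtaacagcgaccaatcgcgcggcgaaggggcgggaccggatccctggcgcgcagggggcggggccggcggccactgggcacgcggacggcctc
Arntl (chr7:113207528-113207557, plus strand): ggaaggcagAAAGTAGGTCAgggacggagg

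The E-box of Per1 began at position -166 from the start site and that of Cry1 at -60. The D-boxes of Per3 began at -205 and -158, and the RORE of Arntl lay at positions 27 to 37 after the start. Per1 and Arntl each had more than 1 window, and the motif lay in only 1 of them. Positions are counted from the start site of that window. The E-box variant was found in Cry1, Cry2 and Nr1d1. No motif was found in the windows of Clock, Nr1d2 and Dbp, which says only that these letters are not in those windows. Of all 32851 windows in the table, 7.15% held the E-box, 4.68% its variant, 0.938% the D-box, 1.79% the cAMP response element and 0.384% the RORE. The cAMP response element was in 0 of the 13 windows of the clock genes. A match is a description of the sequence and not evidence of binding.

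Signal was compared as log2 intensity minus the 75th percentile of each array, and all levels below are on this scale. Since probes differ in brightness, levels were compared between arrays and not between genes. Between 27025 and 30272 of 59305 spots were well above background, and 0 spots were saturated. PGC-1αf/f replicate 3 stood apart, its correlation with the others averaging 0.928, against 0.962 to 0.972 for the rest. All 10 microglial markers, P2ry12 among them, were well above background on at least 1 array. The brighter Ppargc1a probe, which reads the gene that encodes PGC-1α, read 0.19, -0.44 and -1.21 on control arrays against 0.57, 0.28 and 0.08 on mPGC-1α arrays. The difference was 0.80 (SE 0.35, limma adjusted p 0.306), and the groups overlapped. The other Ppargc1a probe differed by 0.59 (SE 0.38, limma adjusted p 0.4455), and its groups overlapped too. The paper reports higher PGC-1α mRNA in mPGC-1α microglia by qRT-PCR. Whether these probes read the transgene was not tested.

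The whole clock panel was measured. Of the 19 probes, 13 were well above background on every array of at least 1 group and were tested, 5 were well above background on 0 arrays, and the remaining Per3 probe was so only on PGC-1αf/f replicate 3. At least 1 probe was tested for each of the 10 genes, and the brightest tested probe with values on all 6 arrays stands for the gene. In the limma fit, 0 of the 10 genes passed an adjusted p of 0.05, which 0.0792% of the 25257 tested probes did. At an unadjusted p under 0.05, 1 gene was higher in mPGC-1α (Per1) and 0 were lower, against 7.53% of tested probes higher and 9.21% lower. The groups overlapped in 10 of the 10 genes, whereas the groups lay apart in 25.2% of the tested probes measured on all arrays. Of the 10 differences 5 were above and 5 below 0, with a median of -0.04, beside a median of -0.0026 over all tested probes. The direction of Nr1d1 turned under other scalings, as given with its values.

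**Figure D1:**
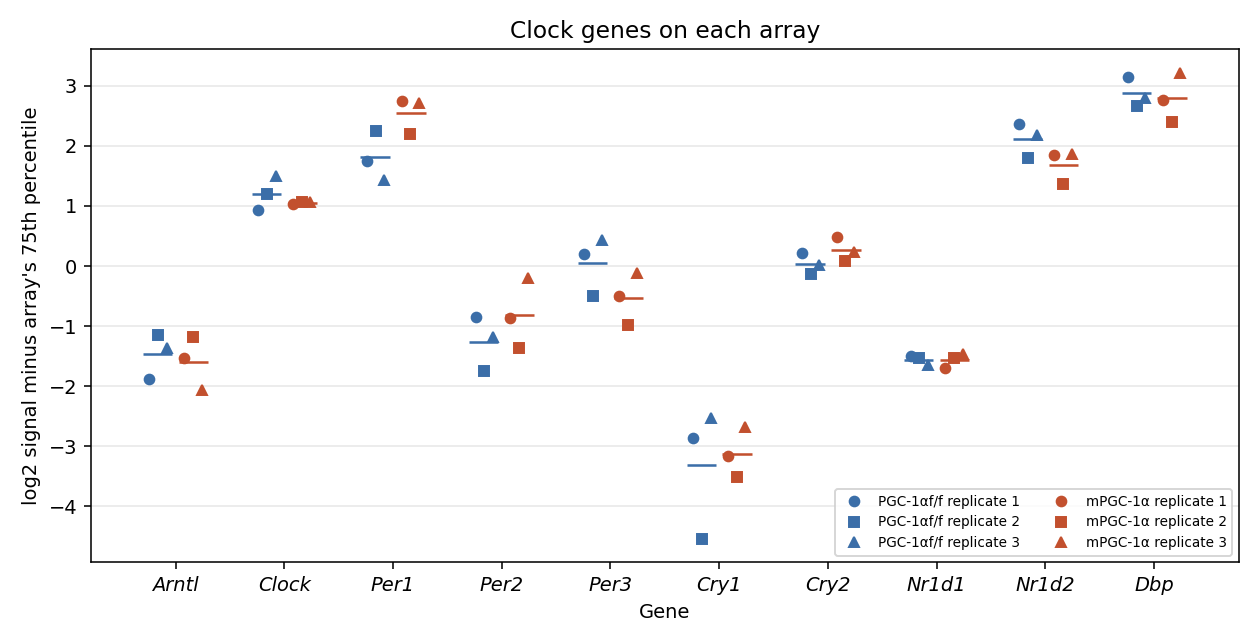
Level of the 10 clock genes on each of the 6 arrays, as log2 signal relative to its array's 75th percentile (y axis), by gene (x axis). Each point is an array, with its shape giving the replicate number, and short lines are group means. In every gene the points of the 2 groups overlap, and Per1 has the largest gap between group means above 0.

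The activators were examined first. Arntl, the activator that cycles most strongly, gave -1.88, -1.15 and -1.37 in PGC-1αf/f against -1.53, -1.17 and -2.06 in mPGC-1α microglia (replicates 1, 2 and 3 of each group). The lowest array was mPGC-1α replicate 3, and the replicate 2 arrays of both groups were highest. The means were -1.47 ± 0.38 and -1.59 ± 0.45 (SD, n = 3 each). The difference was -0.12 (SE 0.28, 95% interval -0.79 to 0.54, limma adjusted p 0.843). Leaving out PGC-1αf/f replicate 2 or mPGC-1α replicate 3 turned it to 0.03 and 0.11. It was -0.33 when PGC-1αf/f replicate 1 or mPGC-1α replicate 2 was dropped, and -0.08 when PGC-1αf/f replicate 3 was. Its other probes were never well above background.

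Clock, the DNA-binding partner of the Arntl protein, gave 0.93, 1.19 and 1.49 in PGC-1αf/f and 1.03, 1.06 and 1.07 in mPGC-1α microglia. The mPGC-1α arrays lay close together inside the control range. The difference was -0.15 (SE 0.17, 95% interval -0.55 to 0.25, limma adjusted p 0.674), and was -0.29 without PGC-1αf/f replicate 1 but -0.0045 without PGC-1αf/f replicate 3. The other tested Clock probe, which had values on 4 arrays after outlier spots were dropped, differed by -0.41 (SE 0.38, limma adjusted p 0.609). Neither activator differed beyond the spread between arrays. Npas2, which can stand in for Clock, had 1 probe, which was never well above background.

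The Period genes, which encode the repressors that close the loop, did not move together. Per1, which is also switched on rapidly by cAMP and glucocorticoid signals, gave 1.75, 2.25 and 1.43 in PGC-1αf/f microglia. It gave 2.74, 2.19 and 2.71 in mPGC-1α microglia. Replicates 1 and 3 of mPGC-1α lay above every control array, and replicate 2 lay just below the highest control. The means were 1.81 ± 0.42 and 2.55 ± 0.31 (SD, n = 3 each). The difference was 0.74 (SE 0.25, 95% interval 0.14 to 1.34), or 1.67-fold, with an unadjusted p of 0.0230 and an adjusted p of 0.246 by limma. Per1 was therefore not past the threshold. Its difference was above 0 in all 17 alternatives, from 0.32 with array weights to 0.96 without PGC-1αf/f replicate 2, and its unadjusted p was under 0.05 in 10 of them.

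Per2, the Period gene most closely tied to the phase of the clock, gave -0.85, -1.74 and -1.18 in PGC-1αf/f and -0.87, -1.37 and -0.19 in mPGC-1α microglia. The highest array was mPGC-1α replicate 3, the array with the lowest Arntl. The lowest was PGC-1αf/f replicate 2, the array with the highest Arntl. The difference was 0.45 (SE 0.34, 95% interval -0.37 to 1.27, limma adjusted p 0.524). It moved with single arrays, to 0.14 without mPGC-1α replicate 3, 0.21 without PGC-1αf/f replicate 2, and 0.73 without mPGC-1α replicate 2.

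Per3, which is not needed for rhythm in most tissues, gave 0.20, -0.49 and 0.44 in PGC-1αf/f and -0.50, -0.98 and -0.11 in mPGC-1α microglia. PGC-1αf/f replicate 2 was the only control inside the range of the mPGC-1α arrays. The difference was -0.58 (SE 0.31, 95% interval -1.31 to 0.15, limma adjusted p 0.373). It shrank to -0.39 when PGC-1αf/f replicate 3 was left out and to -0.36 when mPGC-1α replicate 2 was. Differences were thus above 0 for Per1 and Per2 and below 0 for Per3, and none of the 3 passed the threshold.

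The Cryptochromes bind PER proteins and carry most of the repression. Cry1 was dim and gave -2.87, -4.54 and -2.53 in PGC-1αf/f and -3.16, -3.51 and -2.69 in mPGC-1α microglia. It was well above background on 2 of the 3 control arrays and on all 3 mPGC-1α arrays. PGC-1αf/f replicate 2 was far below the others. The difference was 0.19 (SE 0.52, 95% interval -1.04 to 1.42, limma adjusted p 0.870), and leaving out that array turned it to -0.42. It was 0.72 with array weights, 0.59 without PGC-1αf/f replicate 3 and 0.41 without PGC-1αf/f replicate 1. Without mPGC-1α replicate 2 it was 0.39, and without mPGC-1α replicate 3 it was -0.02.

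Cry2 gave 0.21, -0.14 and 0.02 in PGC-1αf/f and 0.49, 0.09 and 0.23 in mPGC-1α microglia. Only mPGC-1α replicates 1 and 3 lay above every control. The difference was 0.24 (SE 0.17, 95% interval -0.15 to 0.63, limma adjusted p 0.479), and was 0.15 without PGC-1αf/f replicate 2 and 0.13 without mPGC-1α replicate 1.

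The REV-ERB genes, which repress Arntl, differed from each other in how much their arrays spread. Nr1d1 gave -1.50, -1.54 and -1.65 in PGC-1αf/f and -1.69, -1.53 and -1.46 in mPGC-1α microglia. These 6 values span the narrowest range of the 10 genes. The group means were both -1.56, and the difference was 0.0006 (SE 0.13, 95% interval -0.31 to 0.31, limma adjusted p 0.999). Its sign has no weight: the difference was -0.04 with quantile normalization and -0.13 with a median shift.

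Nr1d2 gave 2.36, 1.80 and 2.18 in PGC-1αf/f and 1.85, 1.36 and 1.86 in mPGC-1α microglia. PGC-1αf/f replicates 1 and 3 lay above every mPGC-1α array, and mPGC-1α replicate 2 was the lowest. The difference was -0.42 (SE 0.21, 95% interval -0.92 to 0.08), with an unadjusted p of 0.0862 and an adjusted p of 0.354 by limma. It was -0.26 without mPGC-1α replicate 2. The other Nr1d2 probe had values on PGC-1αf/f replicate 3 (0.87) and mPGC-1α replicate 3 (0.23) only.

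Dbp, an output gene whose protein drives D-box genes, differed more within mPGC-1α than between the groups. Its brighter probe gave 3.15, 2.67 and 2.80 in PGC-1αf/f and 2.76, 2.39 and 3.22 in mPGC-1α microglia. The mPGC-1α arrays held both the lowest and the highest value. The difference was -0.09 (SE 0.24, 95% interval -0.66 to 0.49, limma adjusted p 0.878). It turned to 0.05 without PGC-1αf/f replicate 1 and 0.11 without mPGC-1α replicate 2, and was -0.19 without PGC-1αf/f replicate 2 and -0.30 without mPGC-1α replicate 3. The other Dbp probe differed by -0.17 (SE 0.29, limma adjusted p 0.782), and its lowest array was also mPGC-1α replicate 2.

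**Figure D2:**
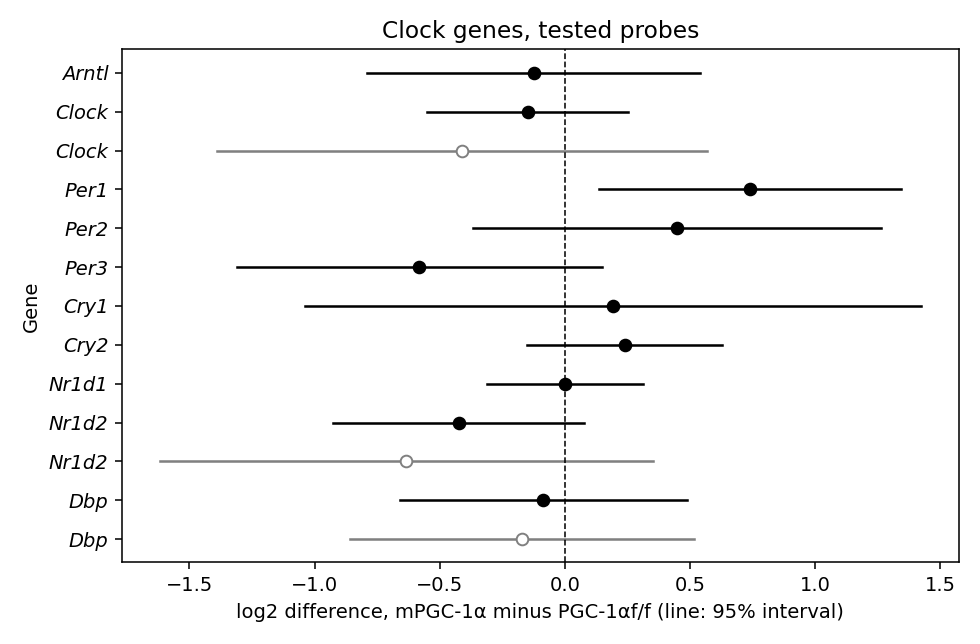
Log2 difference between mPGC-1α and PGC-1αf/f microglia (x axis) for each of the 13 tested clock probes (y axis, by gene), with the 95% interval of the limma fit as a line. Filled points stand for the gene and open grey points are further probes; only the interval of Per1, 0.14 to 1.34, leaves out 0, before any adjustment over probes.

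Relations between the clock genes were then examined across single arrays. Arntl was compared with each of the other 9 genes over the 6 arrays, with exact permutation tests over the 720 orders of the arrays, two-sided. Of the 9 relations, 1 passed an adjusted p of 0.05, that of Arntl and Per2, which ran in exactly opposite order. Pearson's r was -0.932 (exact p 0.00139, adjusted over the 9 relations 0.0125), and Spearman's rho was -1 (exact p 0.00278, adjusted 0.025). Without the 2 arrays farthest from the median of Arntl, mPGC-1α replicate 3 and PGC-1αf/f replicate 1, r was -0.93 over the remaining arrays. Taken as deviations from the group means, r was -0.973, so the relation did not rest on the difference between the groups.

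For Arntl and Dbp, Pearson's r was -0.932 (exact p 0.0125, adjusted 0.0563) and Spearman's rho was -0.886 (exact p 0.0333, adjusted 0.15). Without the same 2 arrays r was -0.664, and for deviations from the group means it was -0.987. The relation of Arntl with Dbp did not pass the correction. The other 7 relations gave Pearson's r from -0.655 (Cry1) to 0.426 (Clock), each with an adjusted p of 0.454 or more. Per1 was the gene least tied to Arntl, with r of -0.225 (exact p 0.644).

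These relations depended on scaling between arrays. For Arntl and Per2, r was -0.906 with quantile normalization (exact p adjusted 0.0375), -0.960 with normexp (0.05) and -0.801 with a median shift (0.475). Without any scaling between arrays it was -0.132 (exact p adjusted 0.889). For Arntl and Dbp it lay between -0.774 and -0.583 under the other scalings and was 0.198 without scaling. Of 15123 probes with a gene name that were well above background on all arrays, 0.317% had an r with Arntl at or below that of Per2, and 0.311% at or below that of Dbp. Both arrays with the highest Arntl, the replicate 2 arrays, lay in slide column 2, and the part of slide position was not tested.

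**Figure D3:**
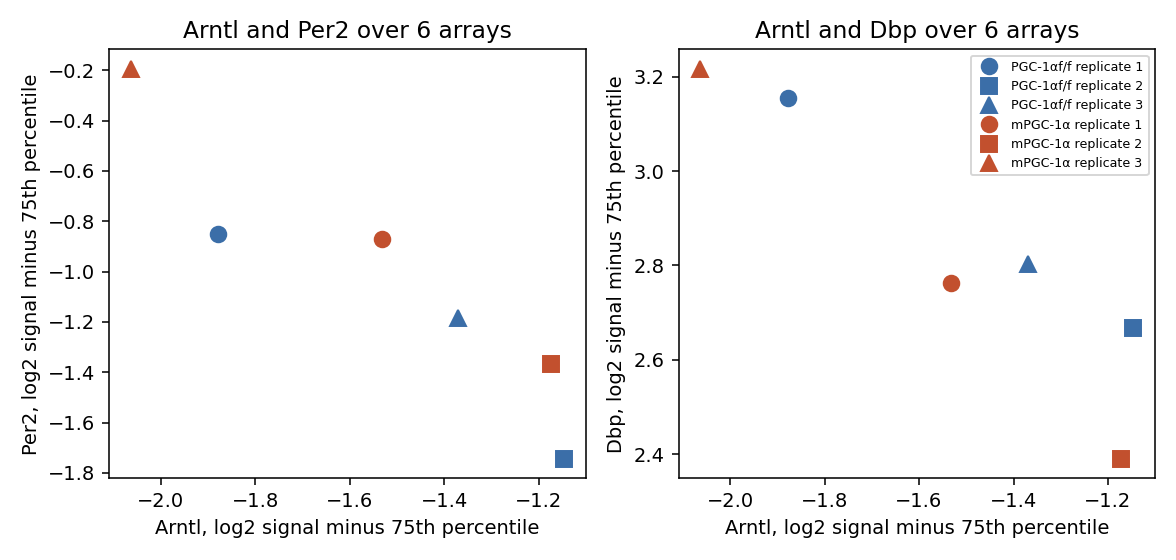
Level of Arntl (x axis) against Per2 (left) and Dbp (right) on the 6 arrays, all as log2 signal relative to its array's 75th percentile; blue points are PGC-1αf/f and orange points mPGC-1α arrays. Per2 falls at each step as Arntl rises, from -0.19 at the lowest Arntl to -1.74 at the highest, and arrays of both groups lie along the same course.

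A contrast of phase was taken as the mean of 6 genes driven by the activators (Per1, Per2, Per3, Nr1d1, Nr1d2 and Dbp) minus the mean of Arntl and Clock. On PGC-1αf/f arrays it was 1.33, 0.47 and 0.61, and on mPGC-1α arrays 0.97, 0.40 and 1.50. The lowest and the highest array were both mPGC-1α. The means were 0.80 ± 0.46 and 0.95 ± 0.55 (SD, n = 3 each), and their difference of 0.15 was smaller than either spread. Single arrays decided its size and sign: it was 0.42 without PGC-1αf/f replicate 1, 0.43 without mPGC-1α replicate 2, 0.06 without PGC-1αf/f replicate 3, -0.01 without PGC-1αf/f replicate 2 and -0.12 without mPGC-1α replicate 3.

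The genes with the most similar pattern over the 6 arrays were found by Pearson's r among the same 15123 probes. For Arntl they were Plbd2 (0.983), Lrch4 (0.981) and Slc66a1 (0.978). For Per1 they were Pih1d1 (0.987), Dda1 (0.984) and Alcam (0.980), and for Per2 they were Sly (0.989), Ube3a (0.981) and Ddost (0.981). For Dbp they were Zc3h14 (0.983), Fam53a (0.980) and the immediate-early gene Arc (0.979). The 3 nearest genes of the other clock genes had r from 0.974 to 0.994, and none was itself a clock gene. Among the clock genes the highest correlation was that of Per3 with Nr1d2, at 0.919 over the 6 arrays. With 6 arrays, values this high are found for each of the 10 genes.

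Per1 is also an inducible gene, so the levels of lists of inducible genes and cell type markers were set beside it. Each signal was divided by the 75th percentile of its array. Levels were then summed over those genes of a list that had a tested probe measured on every array. Neurons and glia switch on immediate-early genes within minutes of a stimulus such as dissociation, and 13 of the 19 listed were summed. Their sum was 41.3 to 46.6 in PGC-1αf/f and 69.4 to 74.8 in mPGC-1α microglia. Of the 13 that could be compared, 12 were higher in mPGC-1α, 7 at an unadjusted p under 0.05 and 2 past the threshold (Dusp1 and Fosb), where 7.53% of all tested probes were higher at that p and 0.0792% were past the threshold. The sum of 10 of the 12 listed glucocorticoid response genes was 34.4 to 46.8 in PGC-1αf/f and 58.4 to 72.7 in mPGC-1α microglia. Of the 10 that could be compared, 8 were higher, 5 at an unadjusted p under 0.05 and 2 past the threshold (Dusp1 and Cdkn1a), beside the same 7.53% and 0.0792%, with Dusp1 in both lists. Tsc22d3, a standard glucocorticoid target, differed by 0.53 on its brighter probe (SE 0.18, limma adjusted p 0.248) and by 1.06 on the other (SE 0.23, limma adjusted p 0.134). The 2 genes that were lower were Errfi1 (-0.39) and Zbtb16 (-0.06 on its brighter probe, -0.21 on the other). Fkbp5 and Sgk1 had no probe with values on all arrays and are in neither the sum nor the count. Their tested probes differed by 0.28 and 0.95 (Fkbp5) and by 0.21 (Sgk1). Neither sum overlapped between the groups, and their part in the level of Per1 was not tested.

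Summed markers of other cells were set beside the clock genes too, and 0 of these markers passed the threshold in the limma fit. Of the 14 listed blood leukocyte markers, 10 were summed. Their sum was 83.5, 88.1 and 17.3 in PGC-1αf/f and 91.3, 95.6 and 112 in mPGC-1α microglia. All 10 that could be compared were higher in mPGC-1α, 0 at an unadjusted p under 0.05 by limma, and the B cell gene Cd79a was never well above background. PGC-1αf/f replicate 3 was the lowest array for these markers and also for Per1. Without it, the difference of Per1 was 0.55 (limma unadjusted p 0.0542). The sum of 9 of the 10 listed oligodendrocyte markers was 17.9 to 23.3 in PGC-1αf/f and 11.4 to 14.5 in mPGC-1α microglia. By their brightest probes 9 of 9 were lower, 5 at an unadjusted p under 0.05, beside 9.21% of all tested probes. Mbp was lower on its brightest probe (-0.19), but its other tested probes differed by 0.15 and 0.21. The 5 of 10 microglial markers that could be compared summed to 77.4 to 88.2 in PGC-1αf/f and 68.3 to 75.7 in mPGC-1α microglia. Sums for astrocytes, neurons and border macrophages overlapped between the groups, as did that of endothelial and mural cells (3.31 to 13.7 and 13.7 to 17.7). In bulk samples fewer cells of a type and less RNA per cell cannot be told apart, and the part of these cells in the clock genes' levels was not tested.

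**Figure D4:**
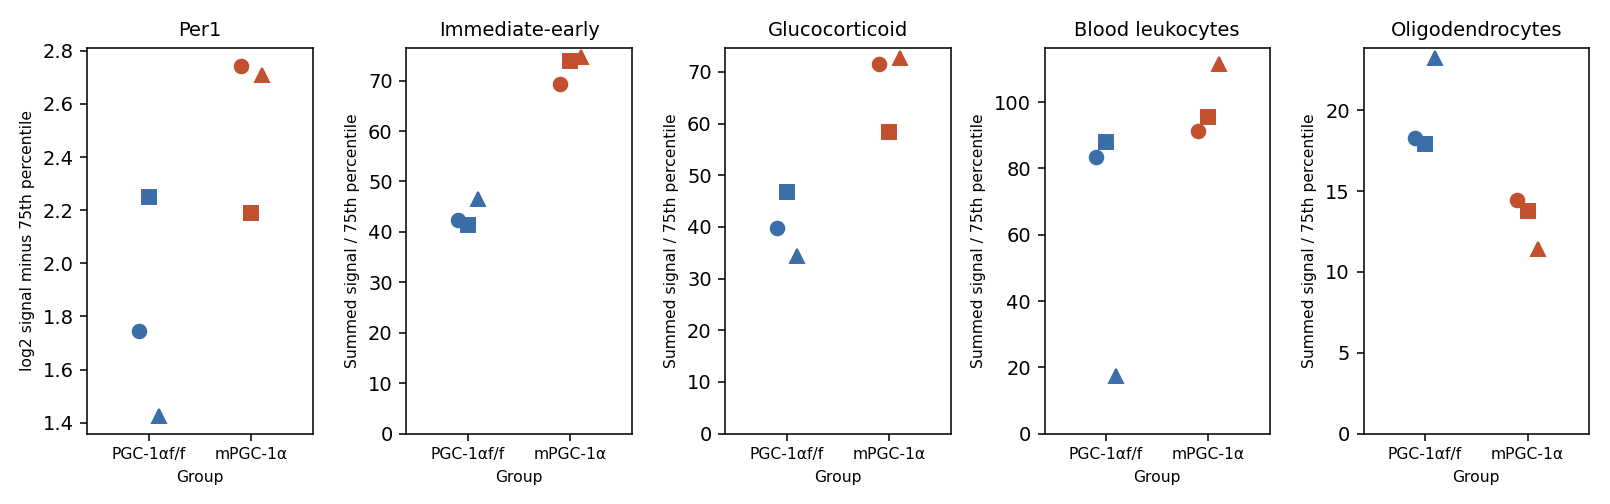
Per1 as log2 signal relative to its array's 75th percentile (left) beside the summed signal, in units of the 75th percentile, of 4 gene lists on each array by group (x axis). The sums of immediate-early and glucocorticoid response genes do not overlap between the groups, Per1 does, and PGC-1αf/f replicate 3 is low in blood leukocyte markers at 17.3.

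The wider clock pathway was then examined through 36 further genes, of which 28 were represented by a tested probe measured on every array. None of the 28 passed an adjusted p of 0.05 in the limma fit, but 10 were higher in mPGC-1α at an unadjusted p under 0.05 and 0 were lower, beside 7.53% and 9.21% of all tested probes. The 10 include Wee1, which passed the filter on dim probes only through its mPGC-1α arrays, and with the filter on all 6 arrays the count was 9. Of the 28 differences 18 were above and 10 below 0, with a median of 0.09. In 9 genes the groups did not overlap, 7 of them higher and 2 lower (Gsk3b and Rora), beside 25.2% of all tested probes. The count of 10 fell to 5 without mPGC-1α replicate 2 and to 6 without mPGC-1α replicate 3.

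Repressors of the loop outside the PER and CRY families were among these genes. Bhlhe40 (DEC1), which represses E-box genes and is itself inducible, gave -1.62, -1.53 and -2.54 in PGC-1αf/f and -0.78, -0.86 and -0.67 in mPGC-1α microglia. Every mPGC-1α array was above every control. The difference was 1.13 (SE 0.27), or 2.19-fold, and the limma adjusted p was 0.161. The difference fell to 0.81 without PGC-1αf/f replicate 3 (limma adjusted p 0.120). Its paralog Bhlhe41 (DEC2), a regulator in macrophages, differed by 0.37 (SE 0.20, limma adjusted p 0.375), and by 0.58 without PGC-1αf/f replicate 3 (limma adjusted p 0.190).

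Nfil3, which binds the D-box in competition with DBP and represses its targets, gave -1.04, -0.16 and -1.03 in PGC-1αf/f and -0.18, 0.10 and 0.31 in mPGC-1α microglia. The groups overlapped through PGC-1αf/f replicate 2. The difference was 0.82 (SE 0.27), or 1.76-fold, and the limma adjusted p was 0.236. Its other probe differed by 0.80 (SE 0.29). The D-box activators Tef and Hlf, relatives of Dbp, differed by -0.20 (SE 0.19, limma adjusted p 0.623) and -0.66 (SE 0.31, limma adjusted p 0.333). Tef was at -0.05 and Hlf at -0.41 without PGC-1αf/f replicate 3. Tef was also at -0.07 without mPGC-1α replicate 2 and at -0.31 without mPGC-1α replicate 3. Hlf was named after its values were seen.

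Rora encodes an ROR receptor with many roles in brain, of the family that PGC-1α coactivates and that activates Arntl. It gave 1.53, 1.28 and 1.20 in PGC-1αf/f and 1.15, 1.00 and 1.17 in mPGC-1α microglia. On this probe every mPGC-1α array was below every control, by a small margin. The difference was -0.23 (SE 0.14, limma adjusted p 0.436), and was -0.13 without PGC-1αf/f replicate 1. The other tested Rora probe differed by -0.21 (SE 0.24, limma adjusted p 0.676), and its groups overlapped.

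Further genes at an unadjusted p under 0.05 were the following. Noct (Nocturnin), an NADPH phosphatase with rhythmic expression, differed by 0.87 on its brighter probe (SE 0.26, limma adjusted p 0.211) and by 0.72 on the other (SE 0.16, limma adjusted p 0.145), and neither probe's groups overlapped. Without PGC-1αf/f replicate 3 the brighter Noct probe differed by 0.57. Nampt, which makes NAD+ for sirtuins, gave -0.12, 0.28 and -0.13 in PGC-1αf/f and 0.63, 0.43 and 0.74 in mPGC-1α microglia, a difference of 0.59 (SE 0.17, limma adjusted p 0.197). Prkaa2, a catalytic subunit of AMPK, which marks CRY proteins for breakdown, differed by 0.96 (SE 0.40, limma adjusted p 0.298), with an unadjusted p under 0.05 in 11 of 17 alternatives. Crem, whose inducible form represses cAMP response genes, differed by 0.59 (SE 0.16, limma adjusted p 0.188), and its other tested probe by 0.22 (SE 0.19).

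A further 3 genes tie the clock to the cell cycle. Timeless differed by 0.96 (SE 0.32, limma adjusted p 0.238) and its partner at the replication fork, Tipin, by 0.47 (SE 0.19, limma adjusted p 0.295). Without PGC-1αf/f replicate 3 Tipin differed by 0.26 (limma unadjusted p 0.108), and its unadjusted p was under 0.05 in 7 of 17 alternatives. Wee1, a kinase that delays mitosis, was not well above background on any control array and was so on all 3 mPGC-1α arrays. Its log2 difference was 0.94 (limma adjusted p 0.259), and the groups overlapped. In the reported scaling with all arrays, its mean was at least 1.63-fold higher in mPGC-1α. That bound replaces each control signal by that array's lowest signal well above background wherever the probe was dimmer. Over 16 alternatives the log2 difference ran from 0.48 with normexp to 1.18 without PGC-1αf/f replicate 1. Without PGC-1αf/f replicate 3 it was 0.60. Of the other genes in the list, Ciart, a repressor driven by E-boxes, was well above background on 2 control arrays and 1 mPGC-1α array and was not tested.

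**Figure D5:**
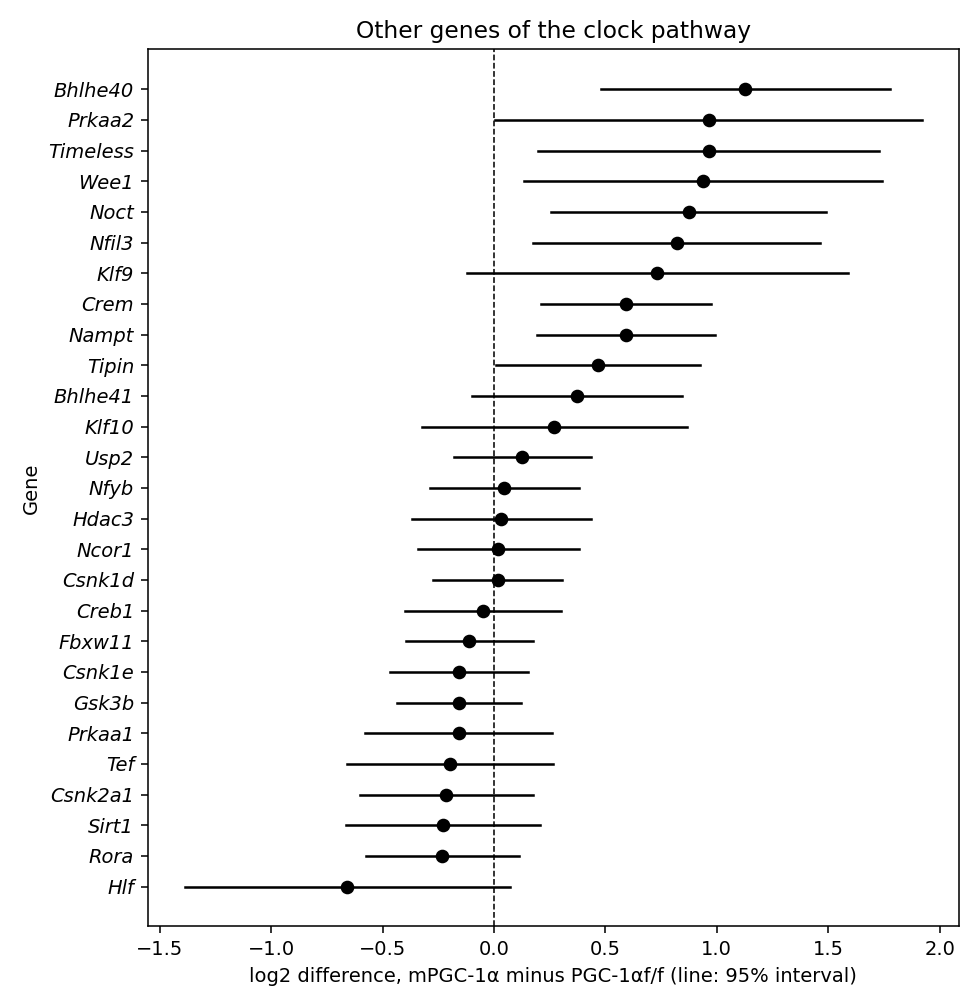
Log2 difference between mPGC-1α and PGC-1αf/f microglia (x axis) for 27 of the further genes of the clock pathway (y axis), ordered by size, with the 95% interval of the limma fit as a line. Intervals of 9 of the genes drawn, from Bhlhe40 at 1.13 to Tipin at 0.47, lie above 0, and none lies below 0.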

How the data were processed

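Microglial RNA of PGC-1αf/f and mPGC-1α mice was hybridized by the authors to 1-colour Agilent arrays (Cy5), 3 per group, on 1 slide. PGC-1αf/f filled slide row 1 and mPGC-1α filled slide row 2, so slide row and group cannot be told apart. The deposited intensity per spot was processed by Agilent Feature Extraction 11.5.1.1 (background and spatial trend corrected) and was not normalized between arrays; the deposited matrix holds the same intensity values, rounded. For normalization the study used GeneSpring, and its methods state no test for single genes.

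Control and outlier spots were left out, log2 intensity was reduced by the array's 75th percentile, and spots of a probe were averaged. Where outlier spots left a probe without a value on an array, the fit used the remaining arrays. A probe was taken as well above background where a share of 0.5 or more of its spots carried that mark. Probes so marked on every array of 1 or both groups were tested two-sided with lmFit and eBayes of limma 3.58.1 in R 4.3.3, reading files with data.table (version 1.17.8). Benjamini-Hochberg adjustment ran over 25257 probes. Probes were named through RefSeq accessions (GRCm38.p6, names and promoter windows only); 33767 probes had 1 symbol. The number of arrays limits the precision. The fit was tested on simulated data.

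The clock genes, the list of 36 further genes and the marker lists were chosen with earlier results of these data known. Named were all 10 clock genes, further genes at an unadjusted p under 0.05, Npas2, Rora, Nfil3, Tef, Bhlhe40, Bhlhe41 and Ciart, Ppargc1a, and the 3 nearest genes of a clock gene, which the rule asked for all 10; for brevity they are named for Arntl, Per1, Per2 and Dbp and given as a range of r for the others. Genes not reported here by name stay in the counts. Alternatives were other scalings (normexp with an offset of 50), filters on dim probes, array weights, the replicate number as a block, slide column as a random block, eBayes with trend and robust, the mean over probes and leaving out each array. The scalings of the correlations and the alternatives for the further genes were added after seeing the data. Figures were drawn with matplotlib and pandas in Python.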

Additional observations from a re-analysis of the deposited data

How the results depend on the processing

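The count of clock genes past an adjusted p of 0.05 was 0 under every alternative, with 0 to 3 at an unadjusted p under 0.05 by limma. Of 169 recomputed differences of the 10 genes, 154 kept their direction and their side of the threshold and 15 turned direction. Nr1d1 turned to -0.0379 (quantile normalization), -0.132 (median shift), -0.0330 (normexp), -0.0342 (table without normalization), -0.0204 (array weights) and -0.0243 (slide column as a random block). Leaving out each array gave -0.0494 to 0.066 for Nr1d1, -0.299 to 0.115 for Dbp, -0.333 to 0.112 for Arntl and -0.424 to 0.585 for Cry1. The correlation of Arntl and Dbp turned to 0.198 in the table without normalization. A median shift moved the median of all probes to -0.14, and by it Per1 differed by 0.61 and Nr1d2 by -0.56.

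Clock genes at an unadjusted p under 0.05 numbered 2 with a median shift, 2 with normexp, 0 in the table without normalization, 2 with the replicate number as a block, 0 with array weights, 3 with slide column as a random block, and 0 to 3 without 1 array (3 without PGC-1αf/f replicate 2, 1 without mPGC-1α replicate 2, 0 without any of the other 4). The further list gave 6 in the table without normalization and 5 to 10 without 1 array. Probes past the threshold, 20 in the reported fit, numbered 11 with quantile normalization, 11 with a median shift, 11 with normexp, 456 in the table without normalization, 9 without a filter, 4 with the filter on all 6 arrays, 0 with the replicate block, 754 with array weights, 138 with slide column as a random block, 7 by gene mean and 0 to 25 without 1 array. The cause of these shifts was not tested.

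Same-numbered arrays deviated together with correlations of 0.139, 0.127 and 0.0187, and the numbers were treated as names only. Under the replicate block Per3 (unadjusted p 0.00749) and Nr1d2 (0.0245) were the 2 clock genes under 0.05, and Per1 was at 0.0508 by limma.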
